A study of Mus musculus with 22 samples.

Results

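The MHC antigen presentation genes H2-Aa, H2-Ab1, H2-Eb1, Cd74, Ciita, H2-K1, H2-D1 and B2m were examined in mouse heart RNA. They were chosen by symbol, and probes were assigned to them through the RefSeq accession that the array design gives for each probe. H2-Aa, H2-Ab1, Cd74, Ciita and B2m, 5 of the 8 listed genes, had 9 such probes between them and all 5 were among the 15502 genes tested. H2-Eb1, H2-K1 and H2-D1 had no probe matched in this way and were not analysed here. The arrays came from 22 female C57BL/6 mice, 1 mouse each, bought at 5 to 7 weeks of age and kept for 1 to 3 weeks before a single intratracheal dose under Hypnorm and Dormicum anaesthesia. Mice of the nano-TiO2 groups were given 162 µg of nanosized titanium dioxide, and hearts were collected at day 1 (5 mice) or day 28 (6 mice). Control mice, 5 at day 1 and 6 at day 28, were given only the dispersion fluid, which was saline with cell-free lavage fluid from the airways of untreated mice and was also the carrier of the particles. The comparison of interest was the response of the heart to particles placed in the airways, early and late after exposure.

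MHC class II molecules present peptides from endocytosed protein to CD4+ T cells. H2-Aa and H2-Ab1 encode the alpha and beta chain of I-A, Cd74 encodes the invariant chain that guides new class II molecules to the endosome, and Ciita encodes the coactivator that switches class II genes on, in dendritic cells and B cells constitutively and in many other cells after interferon gamma. MHC class I molecules present peptides from the cytosol to CD8+ T cells on nearly all nucleated cells, and B2m encodes the light chain that pairs with the class I heavy chains. In the resting heart, class II is carried mainly by resident macrophages and dendritic cells between the cardiomyocytes. In whole-heart RNA, a change in the number of such cells and a change in the amount of transcript per cell cannot be told apart.

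The stretches upstream of the transcription starts of H2-Aa, B2m and H2-DMb1 are shown because these genes varied together among mice, as described further on, and because class I and class II promoters are known for a shared block of elements that includes an inverted CCAAT box (the Y box) and an element related to the cyclic AMP response element (part of the X box). Each is the 250 bases before the start in RefSeq (GRCm38.p6), written 5′ to 3′ on the strand of the gene: H2-Aa from chr17:34287824-34288073 (minus strand), B2m from chr2:122147437-122147686 (plus strand) and H2-DMb1, the beta chain of the peptide exchanger H2-DM, from chr17:34152941-34153190 (plus strand). Of the 5 measured members, 2 had an entry in the RefSeq promoter table used here. Capitals mark matches, on either strand, to CCAAT, to TGACG (the core of the cyclic AMP response element) and to GAAA followed, after any 2 bases, by GAAA (a form of the interferon-stimulated response element).
H2-Aa: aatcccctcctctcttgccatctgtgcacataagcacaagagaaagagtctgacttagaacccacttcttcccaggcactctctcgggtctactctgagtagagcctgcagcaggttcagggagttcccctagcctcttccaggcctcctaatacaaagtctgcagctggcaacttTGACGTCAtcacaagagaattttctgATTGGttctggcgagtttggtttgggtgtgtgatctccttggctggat
B2m: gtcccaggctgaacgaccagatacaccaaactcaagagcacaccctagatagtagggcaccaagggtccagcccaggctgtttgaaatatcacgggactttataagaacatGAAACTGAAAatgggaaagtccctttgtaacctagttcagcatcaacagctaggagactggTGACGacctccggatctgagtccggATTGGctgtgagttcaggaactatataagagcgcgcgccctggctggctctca
H2-DMb1: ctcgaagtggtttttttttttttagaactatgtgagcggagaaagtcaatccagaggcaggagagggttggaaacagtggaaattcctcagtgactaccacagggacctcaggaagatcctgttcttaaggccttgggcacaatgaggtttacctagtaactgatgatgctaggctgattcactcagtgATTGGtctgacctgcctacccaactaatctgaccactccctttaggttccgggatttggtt
All 3 stretches held CCAAT on the reverse strand, 44 to 48 bases before the start in H2-Aa, 49 to 53 in B2m and 57 to 61 in H2-DMb1. H2-Aa held TGACG at 70 to 74 bases before the start and its reverse complement at 67 to 71, so that these matches overlapped, and B2m held it at 74 to 78. B2m alone of the 3 held the GAAA pair, at 130 to 139 bases before the start. Among 32851 promoter stretches of the same length, 33.8% held CCAAT, 17.8% held TGACG, 6.12% held both and 2.98% held the GAAA pair. These matches describe the letters in the stretches and say nothing of binding in these hearts.

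Each value below is a log2 ratio of heart RNA (Cy5) to a reference RNA pooled from 11 mouse cell lines (Cy3), the same on every array. The ratios were normalized by loess, so 0 is the level of the reference on that scale and not equal raw signal. A constant of 50 (the normexp offset) was added to the background-corrected signal of both channels, which shrinks the ratios of dim probes. A step of 1 is therefore close to a doubling only for bright probes. The share of probes detected well above the Cy5 background ran from 32.7% to 52.8% by array, and any 2 arrays had an r of 0.892 to 0.986 over the tested genes. The tissue is labelled heart, while the extraction text names lung. Of 8 cardiomyocyte markers, 7 were well above background on all 22 arrays and Ryr2 on 21. Of 7 lung epithelium genes with a probe, Sftpb and Sftpc were so on no array, Cldn18 on 1, Sftpa1 and Sftpd on 2 each, Scgb1a1 on 6 and Lamp3 on 10. Some arrays stood apart. Sln, an atrial gene, had log2 ratios of 0.13 to 0.24 in control day 1 replicate 2, nano-TiO2 day 1 replicate 1 and nano-TiO2 day 28 replicate 1, against 3.45 to 7.63 on the other arrays. Apoa1, an apolipoprotein made in liver, was well above background in Cy5, or Scgb1a1, the secretoglobin of airway club cells, had a log2 ratio over 1, in 4 of 6 control day 28 arrays (replicates 1, 3, 4 and 5) and in nano-TiO2 day 1 replicate 2. Other liver transcripts were more widespread, with Alb well above background on 15 arrays and Ahsg on 22. B cell transcripts were highest in control day 28 replicates 1 and 5 and nano-TiO2 day 28 replicate 6. Among the kept probes the median Cy5 signal of an array, background subtracted, was 34 to 97 in control day 1 and 46 to 142.5 in control day 28, while that in Cy3 was 164.5 to 187 and 175.5 to 205.

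H2-Aa (chr17:34282744-34287823 in GRCm38.p6) gave log2 ratios of 0.92, 0.77, 0.67, 0.13 and 0.49 in the 5 control day 1 hearts. In nano-TiO2 hearts of day 1 they were 0.59, 1.17, 0.55, 1.33 and 1.14. The control day 28 hearts ran from 0.86 to 1.82 with a median of 1.37. Nano-TiO2 hearts of day 28 spread widest, from 0.14 to 1.57 around a median of 1.01. Control day 28 stood highest, and its range overlapped each of the other groups. With the second H2-Aa probe it did not overlap control day 1 (0.96 to 2.12 against 0.05 to 0.92). This gene was dim: its probe was well above background in Cy5 in 3 of 5 control and 5 of 5 treated hearts at day 1 and 6 of 6 and 5 of 6 at day 28, and in Cy3 on 1 array of 22, so the ratio rests on a reference signal near background. On that array, nano-TiO2 day 28 replicate 4, the spot read 713.5 in Cy5 and 558.5 in Cy3 above its background, against medians over all arrays of 45 and 3.5. The second H2-Aa probe read 44 and 1.5 on the same array.

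H2-Ab1 (chr17:34263227-34269418), its partner chain, was well above background in both channels on every array. Log2 ratios were 2.90, 2.66, 2.88, 2.99 and 2.71 in control day 1. They were 2.80, 3.35, 2.96, 3.36 and 3.17 in nano-TiO2 day 1. Control day 28 hearts all lay higher, from 3.32 to 3.93 with a median of 3.48, and did not overlap control day 1. The nano-TiO2 day 28 hearts ran from 2.58 to 3.70 with a median of 3.22, and 4 of these 6 lay below every control of that day. The 2 further probes of the gene were also higher on average in control day 28 than in control day 1, but with overlap between these groups. Of them, 1 is printed 10 times on the array, and its spots differed within an array by a median SD of 0.26, against an SD of 0.50 between mice of a group.

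Cd74 (chr18:60803849-60812652), the invariant chain, was well above background in both channels on all 22 arrays. The control day 1 hearts read 0.12, 0.02, -0.22, -0.28 and -0.11. Those of nano-TiO2 day 1 read 0.04, 0.72, -0.02, 0.72 and 0.42, and 3 of the 5 exceeded every control of the day. In control day 28 the values ran from 0.31 to 1.29 with a median of 1.08, entirely above control day 1. In nano-TiO2 day 28 they ran from -0.32 to 1.02 with a median of 0.15, and 4 of the 6 hearts lay below every control of the day. Replicates 3 and 6 of that group, at 0.89 and 1.02, were the exceptions.

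Ciita (chr16:10480014-10531064) had a dim probe. Its ratios were 0.52, 0.36, 0.39, -0.01 and 0.06 in control day 1 and -0.08, 0.45, 0.25, 0.39 and 0.37 in nano-TiO2 day 1. At day 28 they ran from -0.01 to 1.33 (median 0.55) in controls and from 0.0045 to 0.75 (median 0.27) with nano-TiO2. All 4 groups overlapped. The probe was well above background in Cy5 in 3 of 5 control and 4 of 5 treated hearts at day 1 and 6 of 6 and 3 of 6 at day 28.

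B2m (chr2:122147687-122153082), the class I light chain, lay below the reference in every heart. The ratios were -2.13, -2.09, -2.27, -1.79 and -1.87 in control day 1 and -1.86, -1.59, -2.09, -1.51 and -1.73 in nano-TiO2 day 1. Control day 28 hearts ran from -1.77 to -0.93 with a median of -1.40, and the highest control of day 1, at -1.79, lay just under them. With nano-TiO2 at day 28 replicates 1, 2 and 5 lay between -2.04 and -1.79 and replicates 3, 4 and 6 between -1.23 and -1.16, so this group spanned both control groups. A second B2m probe, printed 10 times, had a median spot SD of 0.11 within an array against an SD of 0.24 between mice of a group.

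**Figure D1:**
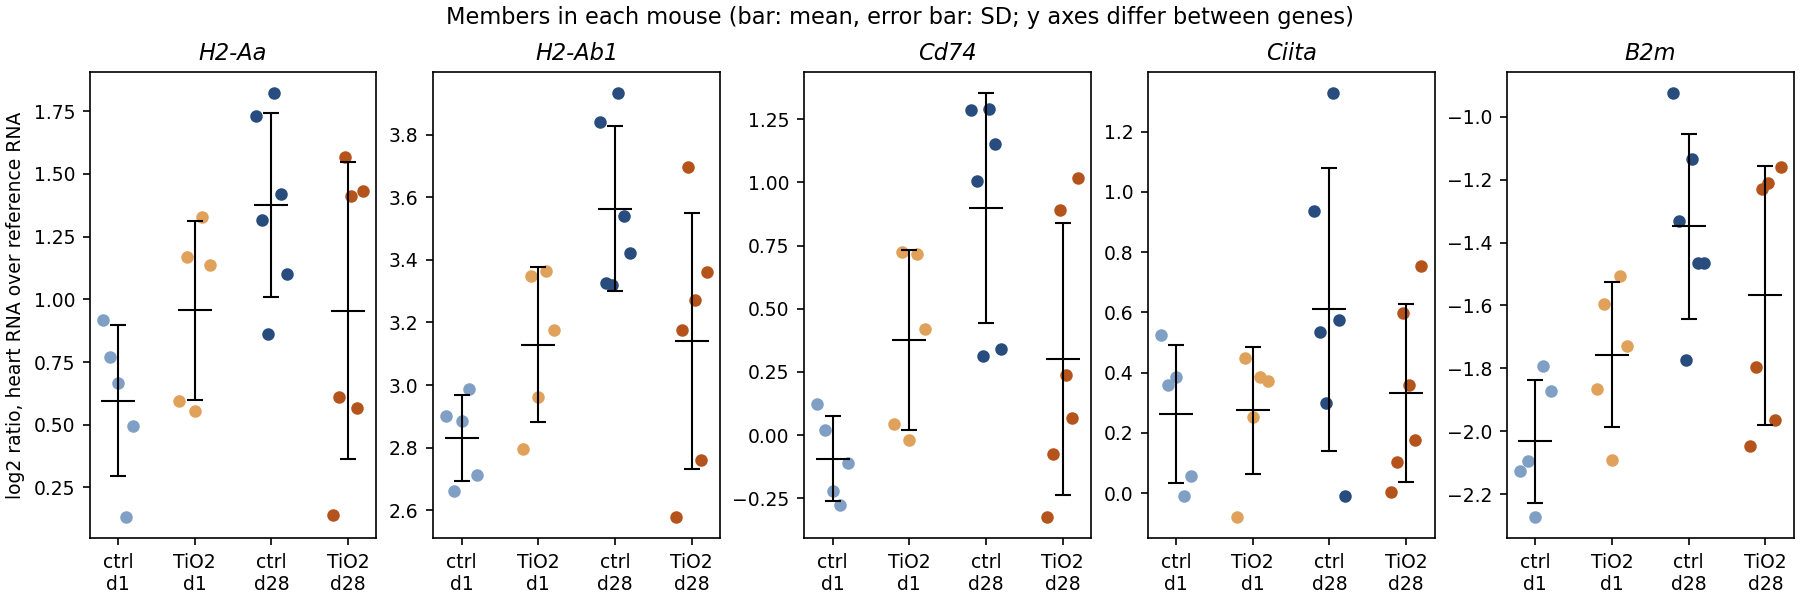
Log2 ratio of heart to reference RNA (y axis, scale differs between panels) for 5 MHC genes in each of 22 mice, with mice grouped on the x axis as control (ctrl) or nano-TiO2 (TiO2) at day 1 (d1) or day 28 (d28); points are mice, bars are group means and error bars are 1 SD. Control day 1 is the lowest group and control day 28 the highest for H2-Aa, H2-Ab1, Cd74 and B2m, and the nano-TiO2 groups lie between them.

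Nano-TiO2 was compared with control at day 1 first. All 5 members were higher in the treated hearts, as were 54.2% of all genes, and none passed the threshold of an adjusted p under 0.05 in limma, with Benjamini-Hochberg adjustment over all 15502 genes. Cd74 differed by 0.47 ± 0.24 (SE, 1.39-fold, n = 5 and 5, limma adjusted p = 0.589). H2-Aa differed by 0.36 ± 0.25 (adjusted p = 0.681), H2-Ab1 by 0.30 ± 0.17 (adjusted p = 0.612), B2m by 0.27 ± 0.18 (adjusted p = 0.662) and Ciita by 0.01 ± 0.19 (adjusted p = 0.987), all from the same limma fit. The median over the members was 0.30, against 0.01 over all genes. Called genes made up 0% of the tested genes here, so the absence of member calls is the same as for the whole array; at an unadjusted p under 0.05 limma listed 1339 genes (8.64%) and no member. Without nano-TiO2 day 1 replicate 1, 21 genes passed and still no member. For H2-Aa, whose reference signal lay near background, the value ran from 0.01 with plain background subtraction to 1.21 in the log ratios given by the scanner. On the 4 slides that held 1 treated and 1 control heart of day 1, B2m was higher in the treated heart on all 4, by 0.14 to 0.50, and each of the other members on 3, with Cd74 between -0.08 and 0.99. Within each of the 3 scan days Cd74, H2-Ab1 and B2m were higher in treated hearts. H2-Aa was lower on the first (-0.11), and Ciita on the first (-0.13) and second (-0.26). Treated and control hearts overlapped for the tested probe of every member. The second B2m probe was an exception, with all 5 treated hearts above all 5 controls (difference 0.29, adjusted p = 0.584), a separation in this direction seen for 1.27% of genes.

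Marker levels of several other cell types differed in this comparison. Of 13 macrophage markers, 12 were higher in treated hearts (median difference 0.29), and the mean of the list ran from 1.09 to 1.44 in controls and from 1.29 to 1.81 in treated hearts. Of 8 adipocyte markers 7 were higher (median 2.47, list mean 1.84 to 3.09 in controls and 1.89 to 6.06 in treated hearts), and 9 of 10 fibroblast markers were higher (median 0.33, 0.24 to 0.78 against 0.24 to 1.29). All 6 atrial markers were higher (median 1.39, 1.30 to 4.63 against 1.23 to 5.43), as were all 5 tested dendritic cell markers (median 0.09) and all 4 tested B cell markers (median 0.19). Of 10 endothelial markers 8 were higher (median 0.11). Higher values were found for 1 of 4 T cell markers (median -0.03), 2 of 5 liver markers (median -0.06) and 2 of 8 cardiomyocyte markers (median -0.07). An unadjusted limma p under 0.05 was reached by 5 macrophage, 5 adipocyte, 2 atrial and 1 fibroblast marker, beside 8.64% of all genes. No marker of the other lists named here reached it. The part of these markers in the members' differences was not tested. The following fits add a marker mean as a covariate. Where that mean itself differed by group, they cannot tell the marker from the group. With the adipocyte mean as a covariate, a setting chosen after seeing the data, all 5 members lay below 0 at day 1, between -0.29 and -0.02. With the macrophage mean they lay between -0.35 and 0.08.

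At day 28 the order was turned. All 5 members were lower with nano-TiO2, as were 51.9% of all genes, and again none passed (0% of all genes called). Cd74 was lower by 0.60 ± 0.22 (SE), a log2 difference of -0.60 with a 95% interval from -1.05 to -0.14 (n = 6 and 6, limma adjusted p = 0.636). The difference of H2-Ab1 was -0.42 ± 0.16 (interval -0.74 to -0.10, adjusted p = 0.636), and that of H2-Aa -0.42 ± 0.23 (adjusted p = 0.671). Ciita stood at -0.28 ± 0.17 (adjusted p = 0.731) and B2m at -0.22 ± 0.16 (adjusted p = 0.771). Cd74 and H2-Ab1 each had an unadjusted limma p of 0.0125, and 2 of 5 members under 0.05 compare with 1178 of all genes (7.6%). The members' median was -0.42, against -0.01 over all genes, and no member had groups that did not overlap (0.071% of all genes were separated in this direction). Without control day 28 replicate 6, 3 genes passed and no member. The dim genes moved with the scale: H2-Aa was -2.12 with plain background subtraction, -1.87 in the scanner's ratios and 0.14 in Cy5 alone, and Ciita -0.67 and -1.04 on the former 2. The values of the tested H2-Aa probe include its spot on nano-TiO2 day 28 replicate 4, which read 713.5 in Cy5 and 558.5 in Cy3. The part of that spot in these values was not tested. The second H2-Aa probe gave -1.15 with plain background subtraction, -0.63 in the scanner's ratios and -0.31 in Cy5 alone. Each of 6 slides held 1 treated and 1 control heart of day 28. H2-Ab1 was lower in the treated heart on 5 of them (-1.26 to 0.38) and the other members on 4, with Cd74 between -1.61 and 0.68. Within each of the 3 scan days Cd74 was lower with nano-TiO2, by log2 differences of -1.35 to -0.20, and H2-Ab1 by -0.71 to -0.14. The other members changed sign between scan days: H2-Aa (0.15) and B2m (0.23) were higher with nano-TiO2 on the first, and Ciita (0.18) on the third.

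The marker lists that were mostly higher at day 1, other than the endothelial one, were mostly lower at day 28. All 13 macrophage markers were lower with nano-TiO2 (median -0.18, list mean 1.56 to 2.06 in controls and 1.21 to 1.96 in treated hearts), and so were all 5 tested dendritic cell markers (median -0.18, 0.84 to 1.30 against 0.67 to 1.22). Of the 8 adipocyte markers 7 were lower (median -1.91, 4.02 to 6.64 against 1.98 to 5.78). Lower too were 5 of 6 atrial markers (median -1.002), 9 of 10 fibroblast markers (median -0.25), all 4 B cell markers (median -0.23) and all 4 T cell markers tested (median -0.18). All 5 tested liver markers were lower (median -1.93, list mean 0.66 to 5.15 in controls and 0.55 to 1.74 in treated hearts), each at an unadjusted limma p under 0.05, as were 7.6% of all genes. Of the other lists named here, 2 adipocyte markers and 1 each of the dendritic cell, atrial and cardiomyocyte markers were under 0.05. Of 8 cardiomyocyte markers 7 were higher (median 0.15), and of 10 endothelial markers 5 were higher and 5 lower. Without the 5 arrays set apart by Apoa1 or Scgb1a1, 4 of which are controls of day 28, the Cd74 difference was -0.37, that of H2-Ab1 -0.23, that of H2-Aa -0.25, that of B2m -0.17 and that of Ciita 0.07. With the adipocyte mean as a covariate the members ran from -0.19 to 0.03 and with the macrophage mean from -0.31 to -0.04.

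Whether the treatment difference itself changed from day 1 to day 28 was tested as an interaction. For all 5 members the change was downward, as for 54.2% of genes, and none passed limma's adjusted threshold (0% of genes). Cd74 changed by -1.07 ± 0.33 (SE, adjusted p = 0.139) and H2-Ab1 by -0.72 ± 0.23 (adjusted p = 0.159). For H2-Aa the change was -0.78 ± 0.33 (adjusted p = 0.279), for B2m -0.49 ± 0.24 (adjusted p = 0.345) and for Ciita -0.29 ± 0.26 (adjusted p = 0.644). At an unadjusted p under 0.05 limma listed Cd74, H2-Ab1 and H2-Aa, 3 of 5, beside 14.8% of all genes. Leaving out nano-TiO2 day 1 replicate 1 gave 311 calls over all genes, leaving out replicate 3 or 6 of the treated hearts of day 28 gave 178 and 13, and leaving out control day 28 replicate 6 gave 28, with no member among those called. A difference of this kind between the days therefore did not pass for any member, although the signs at the 2 days were opposite.

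**Figure D2:**
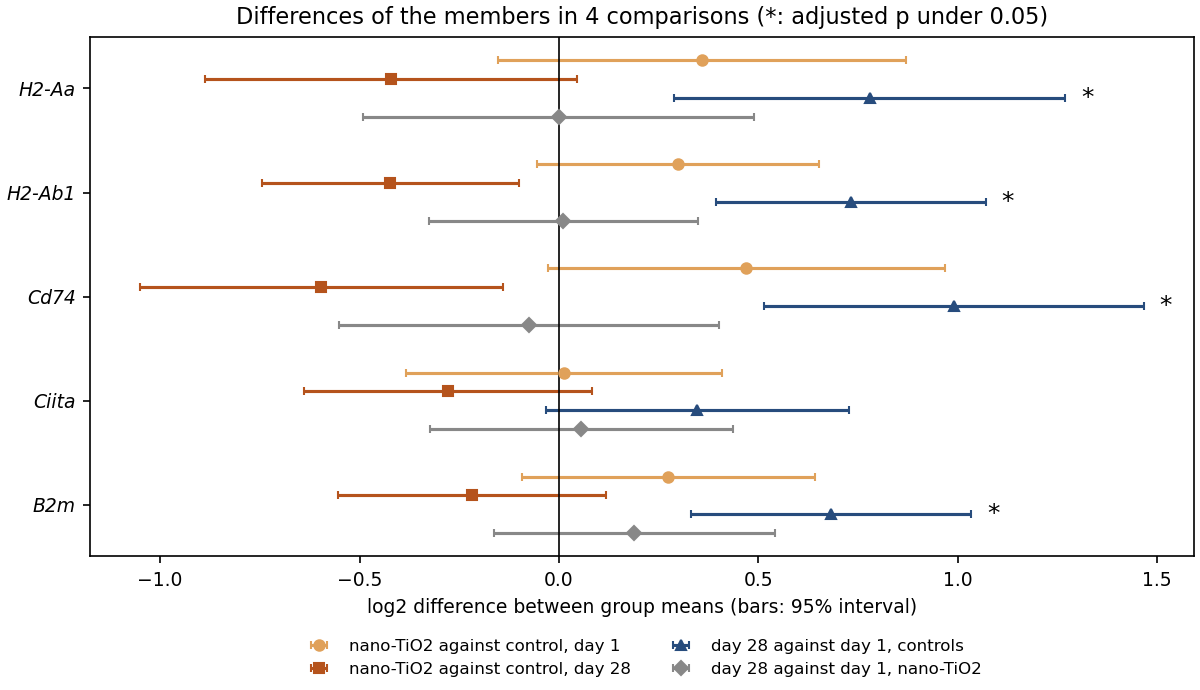
Log2 differences between group means (x axis) of 5 MHC genes (y axis) with 95% intervals from limma, for nano-TiO2 against control at day 1 and day 28 and for day 28 against day 1 in controls and with nano-TiO2; the asterisk marks an adjusted p under 0.05. H2-Aa, H2-Ab1, Cd74 and B2m carry it in the controls only, where their differences were between 0.68 and 0.99.

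Between day 1 and day 28 in control hearts, 4 of the 5 members rose. Of all genes, 1623 passed (10.5%), 1089 of them upward (7.02%) and 534 downward (3.44%). Cd74 rose by 0.99 ± 0.23 (SE, 1.99-fold, adjusted p = 0.00978) and H2-Aa by 0.78 ± 0.24 (adjusted p = 0.0371), a value that rests on a reference signal near background and ran from 0.43 to 2.22 with the scale used. H2-Ab1 rose by 0.73 ± 0.16 (1.66-fold, adjusted p = 0.00787). B2m rose by 0.68 ± 0.17 (1.60-fold, adjusted p = 0.0137). Ciita differed by 0.35 ± 0.18 (adjusted p = 0.242) and did not pass. All p-values are limma's, from 5 and 6 mice. For Cd74, H2-Ab1 and B2m every control of day 28 lay above every control of day 1 with the tested probe, a separation in this direction that 4.66% of genes showed. The second probes of B2m and H2-Aa separated the groups too (H2-Aa by 0.85, adjusted p = 0.0113). Both further H2-Ab1 probes overlapped, with 5 and 4 of the 6 controls of day 28 above every control of day 1. The members' median was 0.73 against -0.002 over all genes. Of the 9 member probes 8 passed, the exception being that of Ciita. These controls are the same mice that served in the treatment comparisons, so the high control level at day 28 and the negative treatment differences of that day, as well as the low control level at day 1 and the positive ones, are not separate observations. Day 28 controls were also older than day 1 controls, and age and time since instillation cannot be told apart.

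The calls in controls depended on several choices. With the slide as a block, 0 members and 0 of all genes passed, at differences of 0.59 for H2-Aa, 0.66 for H2-Ab1, 0.93 for Cd74 and 0.60 for B2m. On each of the 3 slides that held both control groups these 4 genes were higher at day 28, by 0.19 to 0.96 for H2-Aa, 0.43 to 1.18 for H2-Ab1, 0.53 to 1.26 for Cd74 and 0.41 to 1.17 for B2m. On each of the 3 scan days they were higher too, for Cd74 by 0.94 to 1.07. Without the 5 arrays set apart by Apoa1 or Scgb1a1, which leaves 2 controls at day 28, no member passed and 1 gene did, at differences of 0.61 for H2-Aa, 0.54 for H2-Ab1, 0.76 for Cd74 and 0.63 for B2m. H2-Aa lost its call when any 1 of 8 control mice was left out, namely day 1 replicates 2, 3, 4 and 5 and day 28 replicates 1, 2, 4 and 5, with differences from 0.66 to 0.82 and adjusted p from 0.0586 to 0.0946. Leaving out day 1 replicate 1 or 2 or day 28 replicate 4 or 5 lowered the count over all genes to 1065, 958, 961 and 1067.

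The scale of the ratio mattered for the class II chains. With plain background subtraction the H2-Ab1 difference in controls was 0.34 (adjusted p = 0.0946), and in the scanner's own log ratios it was 0.22 (adjusted p = 0.102). For H2-Ab1 the Cy3 signal of the constant reference was 80 to 99.5 in control day 1 and 74 to 226 in control day 28, while Cy5 was 242.5 to 587 and 588 to 1957.5. The H2-Ab1 probe printed 10 times gave 0.80 and 0.60 on those scales and 1.08 on the main one. H2-Aa moved both ways, to 1.56 with plain subtraction (adjusted p = 0.233) and 2.22 in the scanner's ratios (adjusted p = 0.0210), and to 0.43 in Cy5 alone (adjusted p = 0.444) and 0.54 with median centring (adjusted p = 0.188). Without the filter on dim probes its adjusted p was 0.063. Cd74, at 1.03 and 1.01, and B2m, at 0.70 and 0.78, kept their call on both. Every probe of every member was higher in control day 28 under each of the 11 scalings. These include the main one and a quantile scaling of mean intensity between arrays, which leaves the ratios of the main one unchanged.

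In the same control hearts, markers of several other cell types differed in level, while 49.4% of all genes were higher at day 28 and 50.6% lower. The counts of markers that passed stand beside 7.02% of all genes passing upward and 3.44% downward. All 13 macrophage markers were higher at day 28 (median 0.46, 6 passed), with list means of 1.09 to 1.44 at day 1 and 1.56 to 2.06 at day 28. All 5 tested dendritic cell markers were higher (median 0.28, 2 passed, 0.55 to 0.81 against 0.84 to 1.30), although Ccr7, Cd209a and Clec9a were well above background on no array. All 4 tested B cell markers were higher (median 0.78, 1 passed), with list means of -1.53 to -1.03 against -1.52 to 0.49 and with Blk, Cd79a, Fcer2a and Pax5 on no array. Of 8 adipocyte markers 7 were higher (median 4.36, 6 passed upward and 1 downward, 1.84 to 3.09 against 4.02 to 6.64). All 6 atrial markers were higher (median 2.43, 2 passed, 1.30 to 4.63 against 5.07 to 5.61) and 9 of 10 fibroblast markers were higher (median 0.58, 3 passed). All 5 tested liver markers were higher (median 1.16, 0 passed, 1.04 to 2.10 against 0.66 to 5.15). Of the 8 cardiomyocyte markers 7 were lower (median -0.38, 4 passed). With the adipocyte mean as a covariate no member passed, and Cd74 differed by 0.09, B2m by 0.14, H2-Ab1 by 0.21, H2-Aa by -0.02 and Ciita by -0.15. With the macrophage mean none passed either, at 0.27 for Cd74, 0.36 for B2m, 0.26 for H2-Ab1, 0.06 for H2-Aa and -0.26 for Ciita. In both of these fits no gene of the array passed. The adipocyte and macrophage list means did not overlap between the 2 control groups, so these fits cannot tell the markers from the day.

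In hearts given nano-TiO2, the member differences between day 28 and day 1 were 0.19 ± 0.17 (SE) for B2m (adjusted p = 0.906), 0.06 for Ciita, 0.01 for H2-Ab1, -0.001 for H2-Aa and -0.08 for Cd74. No member passed, nor did any gene (0%), and limma listed 697 genes (4.5%) and no member at an unadjusted p under 0.05. Within batches the signs were mixed. On both slides that held hearts of day 1 and day 28 given nano-TiO2, all 5 members were lower at day 28, by log2 differences of -1.05 to -0.20. On the first scan day, with 2 hearts of day 28 and 1 of day 1, all 5 were higher, by 0.23 to 0.94, and on the second all 5 were lower, by -0.59 to -0.13. The 95% interval was -0.55 to 0.40 for Cd74, -0.33 to 0.35 for H2-Ab1, -0.49 to 0.49 for H2-Aa and -0.16 to 0.54 for B2m. The test of whether the step from day 1 to day 28 differed between nano-TiO2 and control hearts is the interaction given above, which passed for no member.

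The members varied together among mice of one group. With the group means subtracted, Pearson's r over 22 mice was between 0.55 and 0.89 in the 10 pairs, and Spearman's rho between 0.62 and 0.87. All 10 had an adjusted permutation p of at most 0.0175 (100000 permutations within groups, Benjamini-Hochberg over the pairs). H2-Aa and Cd74 were closest (r = 0.89, rho = 0.87, permutation p = 1e-05, the smallest that 100000 permutations can give), and Ciita and B2m least close (r = 0.55, rho = 0.62, adjusted permutation p = 0.0175). Leaving out the 2 mice farthest from the median gave r between 0.59 and 0.85. Within the 3 scan days, of 6, 8 and 8 mice, r was between 0.50 and 0.995. Class II genes and the class I light chain were thus high or low in the same hearts, H2-Ab1 with B2m at r = 0.79 and Cd74 with B2m at r = 0.77.

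Their level also followed markers of other cells. Over 60 pairs of a member and a marker list, in the same analysis, dendritic cell markers gave r between 0.59 and 0.82 (adjusted permutation p from 0.003 to 0.037), and adipocyte markers between 0.56 and 0.80 (0.003 to 0.0176). Fibroblast markers gave 0.51 to 0.64 and macrophage markers 0.44 to 0.77 (adjusted permutation p from 6e-04 to 0.143, so that not every member passed). Cardiomyocyte markers ran the opposite way, with r between -0.76 and -0.56 (0.003 to 0.0311). Lists of other tissues passed for some members and not for others: thymus markers gave r of 0.42 to 0.74 (lowest adjusted permutation p 0.00876), liver markers 0.39 to 0.70 (0.00971), B cell markers 0.36 to 0.67 (0.0169), T cell markers 0.16 to 0.63 (0.011) and atrial markers 0.31 to 0.53 (0.0311). In the thymus list, Rag1, Rag2, Ptcra, Foxn1 and Psmb11 were well above background on no array, and only Dntt, Ccl25 and Cd1d1 were tested. Cd1d1 is also in the list of other class I and class I-like genes described further on. The thymus values are therefore not separate from antigen presentation genes, and the part of Cd1d1 in them was not tested. In the dendritic cell list, 5 of 12 genes were tested, namely Zbtb46, Cd83, Batf3, Irf8 and Clec10a. Flt3, Itgax, Xcr1, Itgae, Clec9a, Cd209a and Ccr7 were each well above background on at most 3 arrays and did not enter. Irf8 is also in the interferon gamma list described further on, and its part in the dendritic cell values was not tested. Endothelial markers (0.00 to 0.42) and lung epithelium markers (0.10 to 0.30) did not pass for any member by r. Within scan days, r with the adipocyte list was between 0.17 and 0.94 and with the cardiomyocyte list between -0.97 and -0.58. Without the 2 farthest mice the dendritic list kept r of 0.52 to 0.78, the adipocyte list 0.52 to 0.73 and the cardiomyocyte list -0.67 to -0.51.

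**Figure D3:**
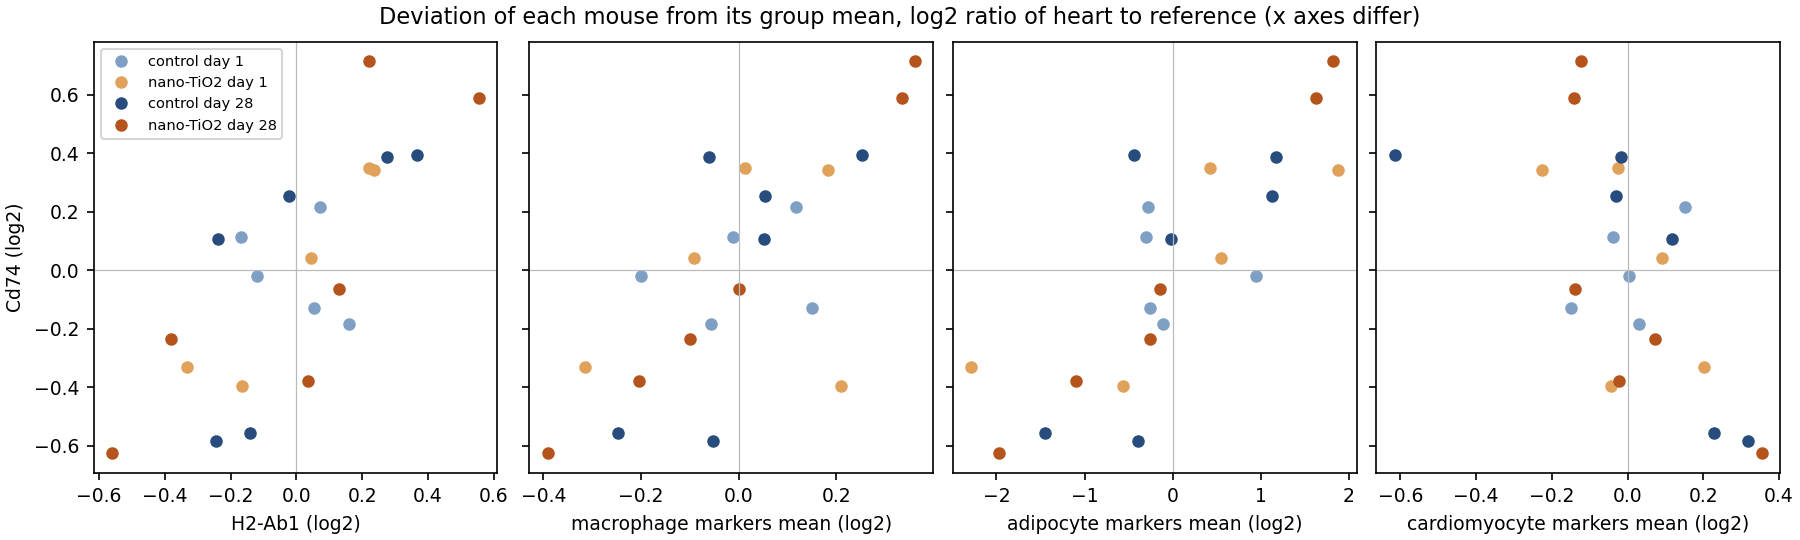
Deviation of Cd74 from its group mean (y axis, log2) in 22 mice against that of H2-Ab1 and of the mean of the macrophage, adipocyte and cardiomyocyte marker lists (x axes, log2, scales differ), coloured by group. Cd74 was high in the hearts where H2-Ab1, macrophage and adipocyte markers were high and cardiomyocyte markers were low.

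The genes whose deviations were most like the mean of H2-Aa, H2-Ab1 and Cd74 over the 22 mice were H2-DMb1 (r = 0.90), Tyrobp (0.88), H2-Q7 (0.87), Retnla (0.87), Cfb (0.86), H2-T23 (0.84), Il10ra (0.84) and C1qtnf12 (0.84). H2-DMb1 is part of the complex that exchanges peptides on class II, Tyrobp is a signalling adaptor of myeloid and natural killer cells, H2-Q7 and H2-T23 are non-classical class I genes, Retnla is a secreted protein of alternatively activated macrophages and of fat, and Cfb is a factor of the alternative complement pathway. Closest to B2m were Casp4 (r = 0.81), an inflammatory caspase, H2-Q2 (0.80), Atp9b (0.80), Pmvk (0.79), Lgals3bp (0.79), Igsf3 (0.79), H2-T23 (0.79) and Fuca1 (0.78). H2-T23 stood in both lists. The median r over all genes was -0.01 for each. These values describe the same 22 arrays and carry no test.

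The rest of the pathway was looked at through 4 lists. Of the class II processing and regulation list 13 of 21 genes were tested, of class I peptide loading and regulation 14 of 17, of other class I and class I-like genes 12 of 18 and of the interferon gamma response 17 of 19. In neither treatment comparison did a gene of these lists pass in limma. At day 1 higher values were found for 9 of 13, 10 of 14, 12 of 12 and 13 of 17 genes, with list medians of 0.06, 0.06, 0.16 and 0.13 against 0.01 over all genes. At day 28 lower values were found for 12 of 13, 10 of 14, 11 of 12 and 13 of 17, with medians of -0.08, -0.05, -0.22 and -0.18 against -0.01. In each list more genes had the members' sign than the opposite one on both days. That sign was also held by 54.2% of all genes at day 1 and 51.9% at day 28. The medians were smaller in size than the members'.

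At day 1, Ctsl and Ctss, the endosomal proteases cathepsin L and S, differed by 0.20 and 0.42 (limma adjusted p = 0.595 and 0.612), and Rfxap, a subunit of the RFX factor of class II promoters, by -0.17. In the class I loading list Calr, the chaperone calreticulin, differed by 0.27, Tapbp (tapasin, which links class I to the peptide transporter) by 0.47, and Psme1, a proteasome activator subunit, by -0.22. H2-T22 differed by 0.41, Hfe, the class I-like regulator of iron uptake, by 0.23 and H2-T23 by 0.25. For the receptor chains of interferon gamma the values were 0.27 for Ifngr1 and -0.22 for Ifngr2, and for the transcription factor Irf8 0.16. The smallest adjusted p among these 12 genes was 0.499.

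At day 28, H2-DMb1 had a difference of -0.65 ± 0.21 (SE), Marchf1, a ubiquitin ligase that removes class II from the surface, of -0.40, and H2-DMa, the partner of H2-DMb1, of -0.32. Tapbpl, a peptide editor related to tapasin, differed by -0.22, Irf1, an interferon-induced transcription factor, by -0.30 and Psmb8, an immunoproteasome subunit, by -0.21. H2-M3 differed by -0.16, H2-Q10 by -0.31 and Cd1d1, which presents lipids to natural killer T cells, by -0.62. Ifngr2 stood at 0.27 and Irf8 at -0.23. The limma adjusted p of all of them was 0.636 or more.

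Between day 1 and day 28 in controls, 3 of 13 class II processing genes rose: H2-DMb1 by 0.92 (adjusted p = 0.0110), Ctss by 0.84 (0.0243) and Marchf1 by 0.58 (0.0251). In the class I loading list 3 of 14 rose, among them the immunoproteasome subunits Psmb8 by 0.56 (0.0143) and Psmb9 by 0.54 (0.0381). Of the other class I genes 5 of 12 rose, H2-M3 by 0.32 (0.0139), H2-T23 by 0.69 (0.0208), H2-Q7 by 0.63 (0.0257), H2-Q10 by 0.69 (0.0274) and Cd1d1 by 1.33 (0.0320). In the interferon gamma list 3 of 17 passed, among them Irf8, which rose by 0.47 (0.0124), and Ifngr2, which fell by 0.42 (0.0426). The values in parentheses are limma's adjusted p over all genes, and these genes were picked for passing, after their values were seen. The list medians were 0.17, 0.16, 0.52 and 0.35, against 0.73 for the members and -0.002 over all genes, where 7.02% of genes rose. No gene of these lists passed between the days in hearts given nano-TiO2.

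**Figure D4:**
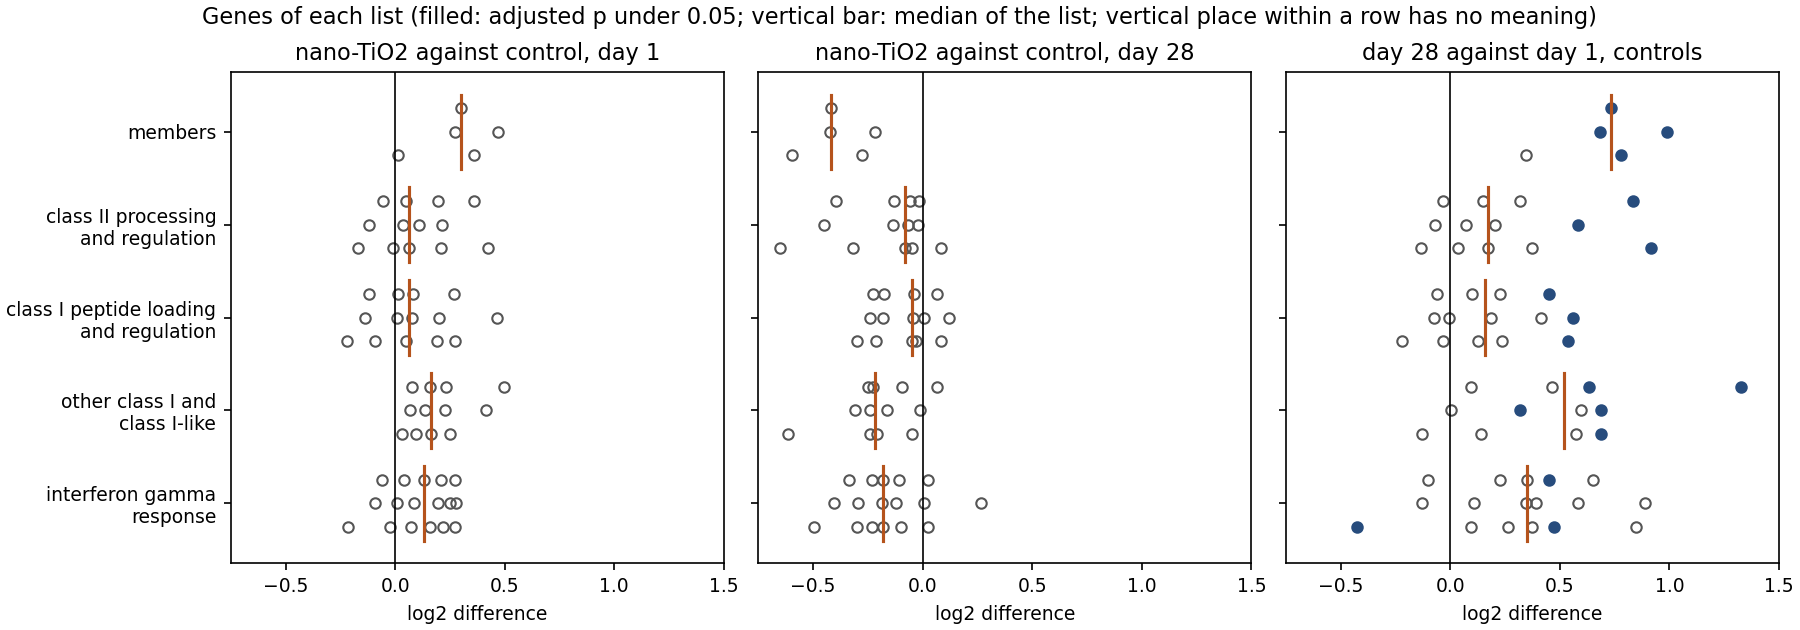
Log2 differences (x axis) of each tested gene of the members and of 4 pathway lists (rows) for nano-TiO2 against control at day 1, at day 28, and for day 28 against day 1 in controls; filled points have an adjusted p under 0.05 and the vertical bar is the median of the list. No point is filled in the treatment comparisons, and 4 members and genes of each list are filled in the controls.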

How the data were processed

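Heart RNA in Cy5 was hybridised against reference RNA in Cy3 on 22 Agilent 2-colour arrays, without dye swap, on 9 slides scanned on 3 days. The deposited scanner files hold median intensities of spot and local background, which the authors neither subtracted nor normalized, and log10 ratios made by Agilent Feature Extraction 10.7.3.1, per the file headers (9.5.3.1 per the submitters' processing notes). The series matrix deposited by the authors is on a log2 scale by a method not given in the sources used here; it correlated at r 0.992 to 0.998 with loess ratios made without background subtraction.

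Median intensities were used, since the files used here hold no means. Background was corrected in limma 3.58.1 (R 4.3.3) with normexp (offset 50), fitted without spots marked for uneven background, and arrays were normalized by loess with control spots at weight 0. Outlier spots (0.299%) were left out, and repeat spots of a probe were averaged. A probe entered if the scanner found its Cy5 signal well above background on 5 or more of 22 arrays (19273 of 41174 did), and each gene was represented by the probe of greatest mean Cy5, which gave 15502 genes, 10476 with a RefSeq symbol. The number of arrays limits the precision.

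Groups were compared with lmFit and eBayes over all 22 arrays, adjusted by Benjamini-Hochberg over all genes at 0.05, and the fit was tested on simulated data. The simulated noise was drawn separately for each gene and array, without slide, scan day or tissue differences, so that test does not bear on such effects. Named were all members, the 3 genes of smallest p at day 1 and at day 28 in each pathway list, and the 8 genes most like the class II members and B2m; others are marked as chosen after their values were seen. The planned mean of 3 class I members came down to B2m and that of 4 class II members to H2-Aa, H2-Ab1 and Cd74. The members and lists were chosen with earlier results of these data known. Alternatives covered background, scaling, filter, probe, variance model, batch and left-out mice. Figures were drawn with Python 3.11.15 and matplotlib 3.10.9.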

Additional observations from a re-analysis of the deposited data

How the results depend on the processing

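The rise of H2-Ab1, Cd74 and B2m in controls from day 1 to day 28 held in direction under every planned and added alternative, and the number of members past the threshold was 3 or 4 with any 1 mouse left out. That number was 2 with plain background subtraction and 0 with normexp fitted on all spots (79 genes in all), median centring (87 genes, where the median of all genes shifted by 0.13), the slide as a block (0 genes), the adipocyte mean as covariate (0 genes), the macrophage mean as covariate (0 genes) and without the 5 arrays set apart by Apoa1 or Scgb1a1 (1 gene, fewer samples). The gene count there was 3865 with scanner log ratios, 2688 with array weights and 847 without the 3 arrays with most B cell transcripts, and 958 to 2069 with 1 mouse left out.

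No member passed in a treatment comparison under any alternative. All-gene counts at day 1 were 7 with scanner log ratios, 4 with array weights, 40 without the 3 arrays with no atrial Sln signal and 0 to 21 with 1 mouse left out; at day 28, 6 without the B cell arrays and 0 to 3 with 1 mouse left out. For the change between the days they were 45 with scanner log ratios, 92 with array weights, 6 with scan day as a block, 95 without the arrays lacking Sln and 0 to 311 with 1 mouse left out.

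Signs that turned were mostly those of differences near 0, in hearts given nano-TiO2 between the days. H2-Ab1 was there -0.022 with plain subtraction, -0.041 with none, -0.44 with normexp on all spots, -0.12 with median centring, -0.18 with scanner ratios, -0.042 in the series matrix, -0.038 as a mean of probes, -0.010 and -0.11 with its other probes, -0.014 with array weights, -0.14 and -0.011 with slide or scan day as a block, -0.033 without the B cell arrays and -0.10 to 0.12 with 1 mouse left out. H2-Aa was 0.026 without subtraction, 0.38 in Cy5 alone, 0.044 in the series matrix, 0.050 as a mean of probes, 0.10 with its other probe, 0.021 with array weights, 0.072 and 0.052 without the Sln or Apoa1/Scgb1a1 arrays, 0.054 with the adipocyte mean and -0.12 to 0.16 with 1 mouse left out. Ciita was -0.00096 with normexp on all spots, -0.29 with scanner ratios, -0.063 with slide as a block, -0.028 without the B cell arrays and -0.032 to 0.12 with 1 mouse left out; B2m was -0.048 with median centring, and Cd74 0.012 without the Apoa1/Scgb1a1 arrays and -0.22 to 0.050 with 1 mouse left out.

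In the treatment comparisons, H2-Aa at day 28 turned to 0.14 in Cy5 alone, while its second probe gave -0.31 there. Ciita at day 1 turned to -0.041 with median centring, -0.048 with array weights, -0.030 without the Apoa1/Scgb1a1 arrays, and -0.056 to 0.10 with 1 mouse left out; without the Apoa1/Scgb1a1 arrays it was 0.069 at day 28 and its change between the days 0.099. With the adipocyte mean, day 1 values were -0.13 for H2-Aa, -0.018 for H2-Ab1, -0.082 for Cd74, -0.29 for Ciita and -0.054 for B2m; B2m was 0.027 at day 28, and the change between the days was 0.077 for H2-Aa, 0.24 for Ciita and 0.081 for B2m. In controls that fit gave -0.023 for H2-Aa and -0.15 for Ciita. With the macrophage mean, day 1 values were -0.071 for H2-Aa and -0.35 for Ciita, the change between the days 0.31 for Ciita, and the controls' value -0.26 for Ciita. The cause of these changes was not tested. The alternatives with covariates and without sets of arrays were chosen after seeing the data.

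The lowest r among the members was 0.55, 0.62 without subtracting group means and 0.69 without background subtraction. The signal limits H2-Aa, whose reference was near background, and Ciita. No paired analysis was possible by replicate number, since these were given in accession order and the labels carry only a mouse number; slides holding treated and control hearts served as a block instead.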
